A study of Mus musculus with 4 samples.

Results

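The genes described here act in DNA replication and cell division, and they were chosen by symbol from those counted in coronal sections of wild-type mouse heads. Of 40 members, 16 belong to S-phase and 24 to mitosis. Of these, 15 S-phase and 22 mitosis genes were measured, which makes 37 of the 19465 genes listed. The ribonucleotide reductase subunit Rrm2, the mitotic cyclin Ccnb1 and the anaphase-promoting complex activator Cdc20 were not analysed here. Gene expression was recorded with Visium, in which barcoded spots under a formalin-fixed, paraffin-embedded section capture transcripts, which are counted by their unique molecular identifiers (UMIs). Several cells, also of unlike types, can lie over a spot. The embryos were C57BL/6J, labelled wild-type, and collected at E14.5 or at E15.5, stages of palate closure. There were 4 capture areas, 2 per stage and each 1 library. Replicate 1 of a stage filled its own area with 1 section. Replicates 2, 3 and 4 shared the remaining area of that stage, and their 3 sections are named A, B and C here from the top of the array, because which is which was not given.

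The areas held 6357 tissue spots and 281039627 UMIs, of which 393257 came from the S-phase and 601699 from the mitosis members. The E14.5 replicate 1 area was the shallowest, with 15438992 UMIs and a median of 6752 UMIs per spot. The E14.5 area of replicates 2, 3 and 4 held 109127953 UMIs with a median of 45058 per spot. The E15.5 areas held 67344393 UMIs with a median of 64051 for replicate 1, and 89128289 UMIs with a median of 45472 for replicates 2, 3 and 4. Section B of the E14.5 area stood apart from the other sections of its own library, with a median of 10038 UMIs per spot against 59411 and 65616. Between 540 and 1388 spot barcodes were shared by 2 areas, as they name positions of the array, and no spot had the same counts in 2 areas.

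Cells copy their genome in S-phase and divide it in mitosis, and each phase draws on its own set of transcripts. In S-phase, Cdc6 and Cdt1 load the helicase Mcm2 to Mcm7 onto origins, Gins2 helps to activate it, Ccne1 and Ccne2 drive the kinase that starts replication, E2f1 switches on genes of this phase, and Tyms, Rrm1 and Pcna supply nucleotides and the sliding clamp. In mitosis, Cdk1 with Ccna2 and Ccnb2 starts division, Plk1, Aurka and Aurkb are kinases of the spindle and chromosomes, Cenpa, Cenpe and Cenpf act at the centromere, and Mki67 coats the chromosomes. In the embryonic forebrain, progenitors divide along the ventricle and postmitotic neurons move outward. In muscle, by contrast, fibres have left the cell cycle while the myoblasts beside them divide.

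The upstream sequences of the members were read to show what the 2 sets carry in common, since the rule used only symbols. RefSeq promoter windows on build GRCm38.p6, from 250 bases before to 50 after a start site, matched 18 mitosis members with 18 windows and 12 S-phase members with 13 windows. The cell-cycle genes homology region (CHR), searched on both strands as TTTGAA or TTTAAA, stood in 16 of 18 mitosis windows (88.9%) and in 3 of 13 S-phase windows (23.1%), against 23.6% of the 18502 windows of all measured genes. The CCAAT box, searched as CCAAT on both strands, stood in 16 mitosis windows (88.9%) and 8 S-phase windows (61.5%), against 37.3%. Both motifs together were in 15 mitosis windows (83.3%), 2 S-phase windows (15.4%) and 9.20% of all windows. The E2F motif, searched on both strands as TTTGGCGC, TTTCGCGC, TTTCCCGC or TTTGCCGC, had the opposite split, with 1 mitosis window (5.56%), 6 S-phase windows (46.2%) and 2.96% of all windows. TTTAAA is its own reverse complement, the E2F matches of both strands overlap in Mcm5 and Mcm6, and a match describes the sequence only. The stretches below show 3 mitosis genes with CHR and CCAAT matches and 2 helicase genes with E2F matches, 5′ to 3′ on the strand of the gene, with the matches in capitals. The Cdk1 stretch holds all 3 motifs, and in the Mcm5 and Mcm6 stretches only E2F matches are in capitals. They lie at chr10:69352939-69353047 (Cdk1, minus strand), chr7:135716470-135716569 (Mki67, minus strand), chr1:189688147-189688246 (Cenpf, minus strand), chr8:75109349-75109388 (Mcm5, plus strand) and chr1:128359736-128359820 (Mcm6, minus strand), all upstream of the annotated start.
Cdk1: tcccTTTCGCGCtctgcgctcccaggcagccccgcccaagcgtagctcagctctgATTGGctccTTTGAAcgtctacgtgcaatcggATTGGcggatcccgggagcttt
Mki67: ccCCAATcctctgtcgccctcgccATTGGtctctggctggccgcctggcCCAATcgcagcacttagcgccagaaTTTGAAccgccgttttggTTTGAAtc
Cenpf: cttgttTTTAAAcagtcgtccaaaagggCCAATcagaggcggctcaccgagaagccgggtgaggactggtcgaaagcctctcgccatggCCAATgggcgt
Mcm5: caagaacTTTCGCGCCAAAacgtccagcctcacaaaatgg
Mcm6: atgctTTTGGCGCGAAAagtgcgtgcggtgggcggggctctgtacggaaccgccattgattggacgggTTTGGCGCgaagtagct

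Spots were placed in regions by marker genes that include no member. Levels are given as counts per 1000000 UMIs of the summed spots (CPM). A spot of at least 1000 UMIs was given the region of its highest marker score if that score was at least 0.25, and 4695 of the 6357 spots were placed, while 1429 spots had scores between 0.20 and 0.30, near that limit. The regions were cortical neuron (Neurod6, Neurod2), cortical ventricular zone (Neurog2, Emx1), ventral forebrain (Dlx2, Gad2), skeletal muscle (Myh3, Tnnt3), cartilage (Col2a1, Acan), bone (Ibsp, Sp7), surface epidermis (Krt10, Krtdap), olfactory epithelium (Gfy, Stoml3), lens (Cryaa, Mip), retina (Six6, Atoh7), oral-palatal mesenchyme (Osr2, Pax9), choroid plexus (Ttr, Folr1) and sensory ganglion (Prph, Avil). Every marker was higher inside than outside its region in every area with 5 spots or more, except Umodl1 in the olfactory region of the E14.5 replicate 1 area, Otx2 in both choroid plexus areas, where it was at 0, and Prph in the sensory ganglion of the E15.5 area of replicates 2, 3 and 4 (37.8 against 46.4 CPM). With that marker against its name, the sensory ganglion, 18 spots in the 3 areas used, is not described by itself. Its totals entered the ranking of genes by the sums, and its 1 call entered the number of calls given at the end. The choroid plexus had enough spots in 2 areas only and was not tested, and the lens was absent from the E14.5 replicate 1 area.

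Averaged over areas, mitosis transcripts took their largest share in the cortical ventricular zone and their smallest in cortical neurons. Cortical neurons were lowest in each of the 4 areas, whereas the ventricular zone was highest in the replicate 1 areas only. In the areas of replicates 2, 3 and 4, the choroid plexus (3262 CPM) and the olfactory epithelium (2781 CPM) were above it at E14.5, and the retina (2680 CPM), the epidermis (2520 CPM) and the olfactory epithelium (2493 CPM) at E15.5. The mean was 3355 ± 876 CPM (SD, n = 4 areas) in the cortical ventricular zone and 1097 ± 312 CPM (n = 4) in the cortical neuron region. The mean S-phase sum ranged from 618 ± 98.2 CPM in cortical neurons (n = 4) to 1787 ± 154 CPM in surface epidermis (n = 4). The order of the highest regions depended on the area. Among regions of at least 5 spots in the E15.5 areas, the ventricular zone had both the highest S-phase sum (1832 CPM) and the highest mitosis sum (4339 CPM) with replicate 1, and the retina had both with replicates 2, 3 and 4 (1769 and 2680 CPM). These sums are shares of all RNA in a spot, so fewer dividing cells and less of these transcripts per cell cannot be told apart. Mki67, Cdk1 and Ccna2 gave 16.1%, 15.9% and 14.5% of the mitosis UMIs, and Rrm1, Cdt1 and Mcm6 gave 13.7%, 11.1% and 10.2% of the S-phase UMIs. Pcna with 34 UMIs, Cenpe with 63 and Bub1 with 144 over all areas were too sparse to describe by region.

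**Figure D1:**
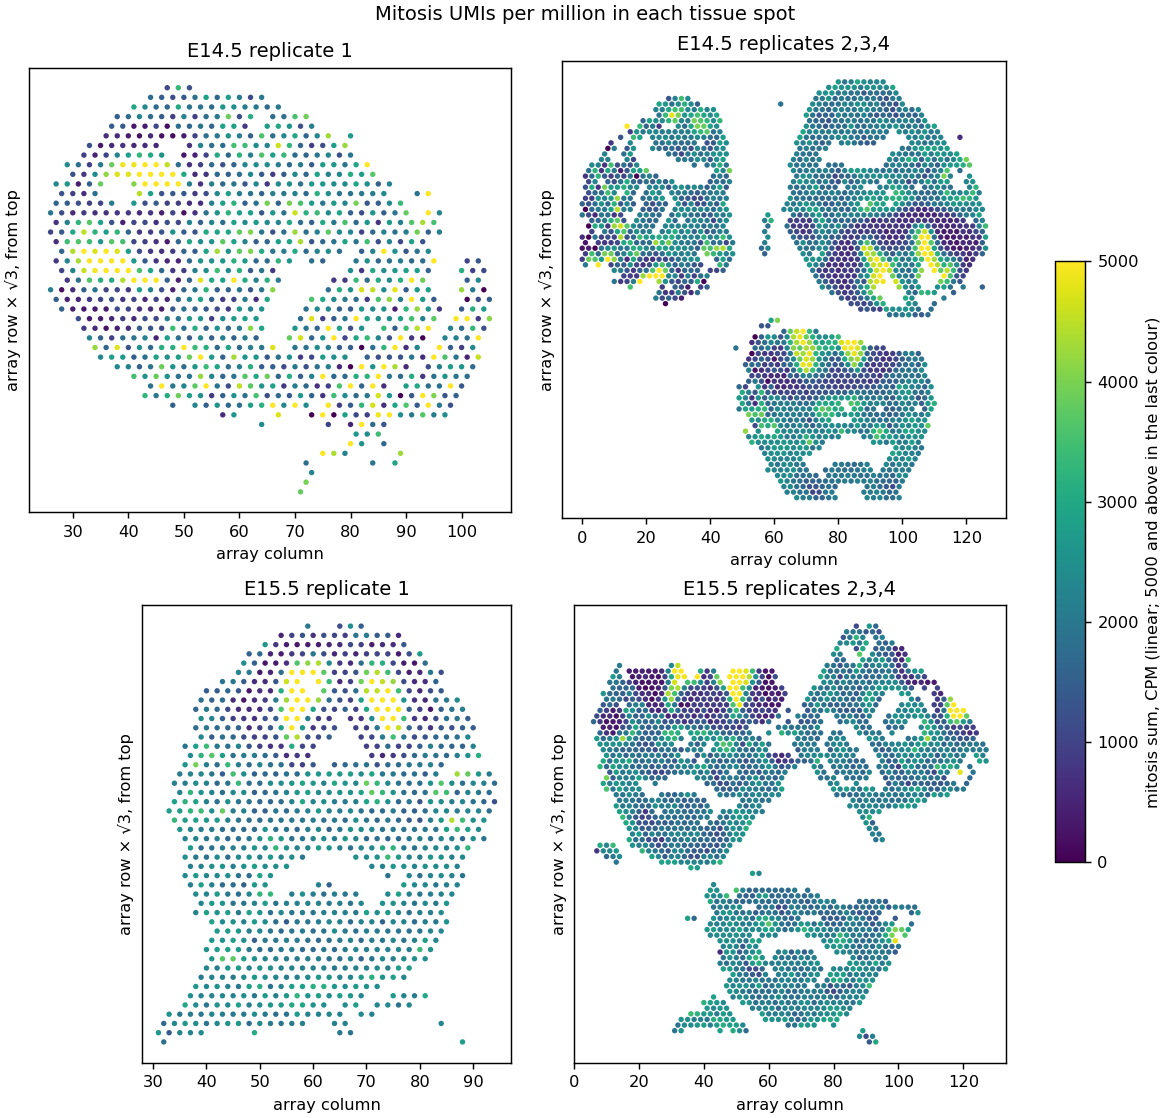
Each point is a tissue spot of at least 1000 UMIs at its place on the array (columns and rows, no unit), coloured by the mitosis sum in CPM on a linear scale that ends at 5000. The brightest spots lie together in bands rather than scattered over the section, and the shallow E14.5 replicate 1 area had the lowest correlation between neighbours (0.82, over spots of at least 5000 UMIs).

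Among spots of at least 5000 UMIs, the 5% with the highest mitosis share in each area numbered 277. Of these, 124 were in the ventral forebrain (44.8%, against 11.5% of all such spots), 42 in the cortical ventricular zone (15.2% against 2.15%) and 30 in the choroid plexus region (10.8% against 1.75%), all 30 of them in the E14.5 area of replicates 2, 3 and 4. Only 1 was in the cortical neuron region, and none was among the 696 spots of skeletal muscle, the 655 of bone or the 117 of lens. Across those spots, the S-phase and mitosis shares had a Pearson correlation of 0.65 in the E14.5 replicate 1 area (622 spots), 0.65 in the E14.5 area of replicates 2, 3 and 4 (1949 spots), 0.74 in the E15.5 replicate 1 area (984 spots) and 0.67 in the E15.5 area of replicates 2, 3 and 4 (1940 spots). Both shares come from the same library and the same total. The mitosis share of a spot and the mean of its neighbours had a correlation between 0.82 and 0.90 in the 4 areas.

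**Figure D2:**
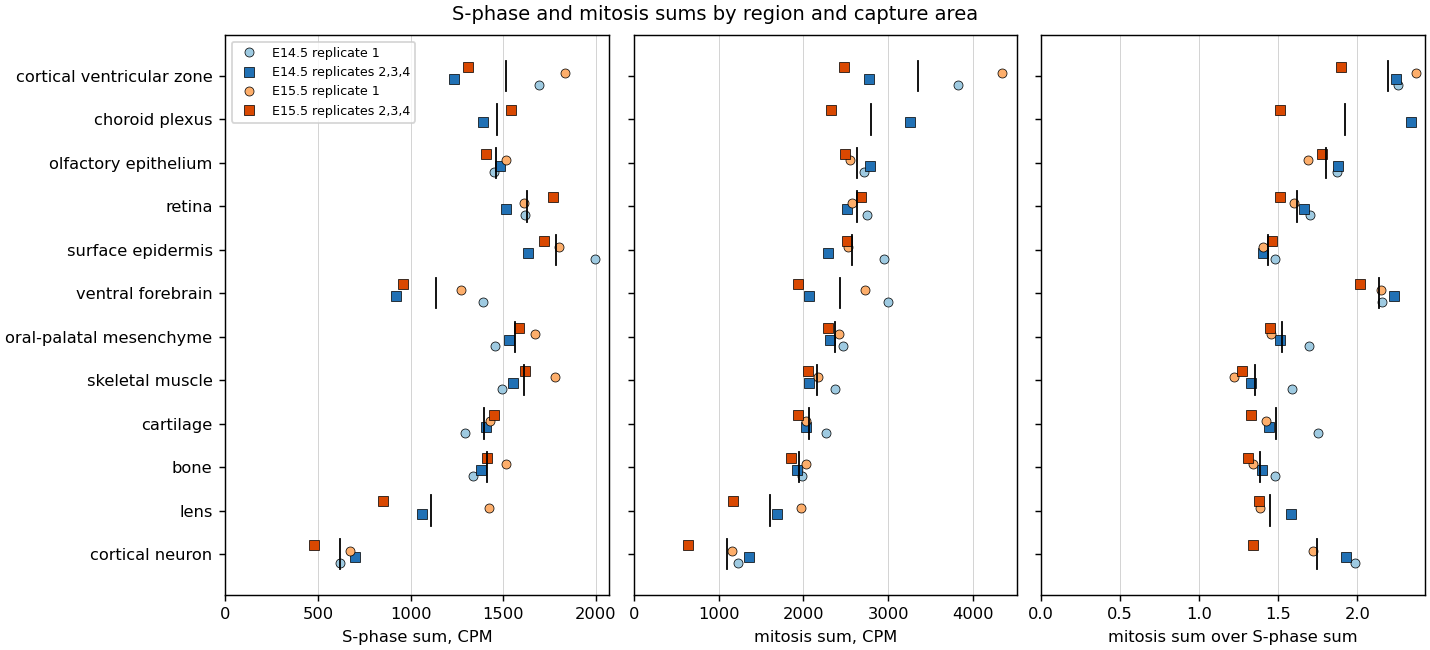
Points are capture areas with at least 5 spots of a region, the vertical line is their mean, and the horizontal axes give the S-phase sum in CPM, the mitosis sum in CPM and the ratio of the mitosis to the S-phase sum (no unit). By the mean over areas, the ratio was lowest in skeletal muscle and bone and highest in the cortical ventricular zone and ventral forebrain, and cortical neurons were lowest in both sums.

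The balance of the 2 sums varied over the regions. The mitosis sum was 2.19 ± 0.206 times the S-phase sum in the cortical ventricular zone and 2.14 ± 0.0885 times in the ventral forebrain (SD, n = 4 areas each). In the cortical neuron region it was 1.75 ± 0.293 times, from 1.34 to 1.99, which overlapped muscle and bone. In skeletal muscle it was 1.35 ± 0.161 times (1.22 to 1.58) and in bone 1.38 ± 0.0743 times. Within an area, this ratio was above that of the other tissue spots in 4 of 4 areas for the ventricular zone, the ventral forebrain and the olfactory epithelium (1.80 ± 0.0906), and below it in 4 of 4 areas for muscle, bone and cartilage (1.49 ± 0.183). In the olfactory epithelium of the E14.5 replicate 1 area it was almost equal to that outside, with a log2 ratio of 0.0034. For cortical neurons the mitosis to S-phase ratio was above in 3 areas and below in the E15.5 area of replicates 2, 3 and 4, by a log2 ratio of -0.054. The ratios did not overlap between the ventricular zone (1.89 to 2.37) and bone (1.31 to 1.48). No test was made of the sums.

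For each region, UMIs inside it were tested against those of all other tissue spots of the same area with edgeR's quasi-likelihood test over all genes, with the area as a block and a Benjamini-Hochberg adjusted p under 0.1 as the call. In this test, the fold change of a gene also depends on which tissues make up the other spots.

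Cortical neurons held the least of both sets. The S-phase sum there was 619 and 701 CPM in the E14.5 areas and 673 and 480 CPM in the E15.5 areas, against 1426, 1340, 1617 and 1479 CPM in the other spots. The mitosis sum was 1231, 1353, 1158 and 644 CPM in the same order, against 2642, 2175, 2403 and 2059 CPM. Both sums were thus lower in 4 of 4 areas, with no overlap between inside and outside. Of 34 members tested, 33 fell and none rose, with a background of 33.8% that rose and 35.9% that fell (69.7% in either direction) of the 13543 genes tested. The median log2 fold change of the members was -0.98, and that of all genes was -0.02. Each of the 20 mitosis members tested fell, and 13 of 14 S-phase members did. The largest fall was that of Ccne1, the cyclin that starts S-phase, at -1.94 ± 0.182 (log2, SE; adjusted p = 0.00015). Its level was 18.6, 24.7, 15.7 and 14.2 CPM inside the region and 75.5, 73.8, 84.5 and 96.9 CPM outside, with no overlap. Mcm2, a subunit of the replicative helicase, followed at -1.38 ± 0.121 (adjusted p = 0.000122). Among mitosis members, Kif20a, a kinesin of cytokinesis, fell most at -1.22 ± 0.323 (adjusted p = 0.0133), and Bub1b, of the spindle checkpoint, and Tpx2, which activates Aurka, fell least at -0.65 and -0.66. The exception was Mcm7, another helicase subunit, at -0.30 ± 0.166 (adjusted p = 0.145).

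The cortical ventricular zone, 128 spots in all, had more mitosis transcripts than the rest of the section while the S-phase sum was higher in some areas and lower in others. The mitosis sum was 3830, 2772, 4339 and 2478 CPM, against 2179, 2118, 2170 and 2042 CPM outside, and was higher in 4 of 4 areas. The S-phase sum was 1694, 1235, 1832 and 1308 CPM against 1207, 1304, 1486 and 1469 CPM, so that 2 areas were higher and 2 lower, both replicate 1 areas being the higher ones. Of 34 members, 14 rose and 2 fell, with a background of 18.3% of 13305 genes that rose and 26.1% that fell, and with a median log2 fold change of 0.38 for the members against -0.06 for all genes. Of 20 mitosis members 11 rose, and of 14 S-phase members 3 did, and the difference between the sets was not tested. Leaving out the E15.5 replicate 1 area brought the number that rose from 14 to 9.

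Cenpf, a kinetochore protein, rose most in the ventricular zone. Its level was 178, 128, 221 and 125 CPM inside and 88.3, 83.5, 76.7 and 67.5 CPM outside, with no overlap, and its log2 fold change was 1.06 ± 0.178 (adjusted p = 0.00296). Tpx2 rose by 0.96 ± 0.202 and Cdca8, of the chromosomal passenger complex, by 0.95 ± 0.18. The cyclin Ccna2, the checkpoint kinase Bub1b and the passenger kinase Aurkb rose by 0.91, 0.91 and 0.90, and Mki67 by 0.79. Not every mitosis member moved this way. Kif20a had 3.92, 4.94, 3.02 and 7.65 CPM inside and 6.26, 6.57, 9.57 and 11.6 CPM outside, a log2 fold change of -0.84 ± 0.348 (adjusted p = 0.0932). That call was lost whichever area was left out, and the gene had only 2471 UMIs over all areas. Ube2c was lower still at -0.98 ± 0.517 but did not pass (adjusted p = 0.171). Hmmr at 0.17 and Plk1 at -0.09 did not pass.

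Within the S-phase set of the ventricular zone, Rrm1, the large subunit of ribonucleotide reductase, rose by 0.81 ± 0.155 (adjusted p = 0.00523), Mcm7 by 0.67 ± 0.203 and Cdc6 by 0.51 ± 0.189. The Rrm1 call held whichever area was left out. That of Mcm7 was lost without the E15.5 replicate 1 area, and that of Cdc6 without either replicate 1 area. Ccne1 fell by 0.83 (SE 0.19, adjusted p = 0.0109), with 50.9, 29, 37.5 and 53.5 CPM inside and 64.9, 71.6, 77.2 and 96.1 CPM outside. The other 5 helicase subunits lay between -0.16 (Mcm3) and 0.12 (Mcm5) and did not pass. Whether Mcm7 differed from its partners was not tested, and its 4012 UMIs were the fewest of the 6 subunits.

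The ventral forebrain, 673 spots, had 8 members that rose and 13 that fell of 34 (23.5% and 38.2%). The background was 36.6% that rose and 38.9% that fell of 13828 genes, so the share of members called was at or below that of all genes in both directions. The median log2 fold change of the members was -0.02, against -0.01 for all genes. Mitosis members that rose were Cenpf (0.67 ± 0.0738), Tpx2 (0.62 ± 0.125), Cdca8 (0.58 ± 0.108), Bub1b (0.48), Ccna2 (0.46), Mki67 (0.42) and Kif11 (0.28). Mitosis members that fell were Kif20a (-1.09 ± 0.209), Ube2c (-0.59), Hmmr (-0.59), Plk1 (-0.45) and Kif23 (-0.20). Most of the other spots are the same in this comparison and in that of the ventricular zone, where Cenpf, Tpx2 and Cdca8 had 1.06, 0.96 and 0.95. Cenpf was at 143, 102, 121 and 99.8 CPM inside and 86.2, 81.1, 78.5 and 65.5 CPM outside, with no overlap.

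Of the S-phase members in the ventral forebrain, 8 of 14 fell and only Rrm1 rose, by 0.52 ± 0.103 (adjusted p = 0.00564). Ccne1 fell by 1.57 on the log2 scale (SE 0.183, adjusted p = 0.00108), with 35.6, 21.7, 24.9 and 23.6 CPM inside and 70.1, 79.5, 80 and 101 CPM outside. Of the 6 helicase subunits 5 fell, from -0.85 for Mcm3 to -0.35 for Mcm5, while Mcm7 was at 0.26 and did not pass. The 2 sums depended on the area. The S-phase sum was 1392, 924, 1270 and 960 CPM against 1222, 1369, 1516 and 1505 CPM outside, higher only in the E14.5 replicate 1 area. The mitosis sum was 2998, 2065, 2730 and 1939 CPM against 2186, 2139, 2206 and 2051 CPM, higher in both replicate 1 areas and slightly lower in the others. With a stricter score of 0.40 for the region, 15 members rose and 6 fell. Leaving out the E14.5 area of replicates 2, 3 and 4, or either E15.5 area, brought the number that fell from 13 to 8.

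Markers of blood and vessels were low in the forebrain regions where these genes moved. The background that fell was 26.1% of all genes tested in the ventricular zone, 38.9% in the ventral forebrain and 35.9% in cortical neurons. Of 8 macrophage markers, 8 fell in the ventricular zone, 8 in the ventral forebrain and 6 in cortical neurons. Of 8 endothelial markers, 7, 7 and 6 fell, with 1 that rose in the ventral forebrain and 1 in cortical neurons, and of 6 erythroid markers 4, 6 and 4 fell. Their summed levels in the ventricular zone were 119, 158, 86.2 and 194 CPM for macrophage genes, led by C1qc or C1qb, and 205, 288, 175 and 329 CPM for endothelial genes, led by Kdr or Cldn5. Over whole areas they were 221, 223, 239 and 319 CPM, and 404, 371, 473 and 482 CPM. The erythroid sum, led by Hbb-bs, was 2322 to 3922 CPM in the ventricular zone and 3973 to 7017 CPM over whole areas. One erythroid gene was at 0 in the ventricular zone of 2 areas, and no macrophage or endothelial gene was. Their part in the results was not tested.

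The retina had more of both sets. The S-phase sum was 1615, 1513, 1613 and 1769 CPM against 1228, 1286, 1485 and 1461 CPM outside, and the mitosis sum was 2747, 2512, 2578 and 2680 CPM against 2313, 2096, 2210 and 2029 CPM, so both were higher in 4 of 4 areas. Of 34 members, 18 rose and 1 fell (background 15.4% that rose and 15.7% that fell of 13717 genes), with a median log2 fold change of 0.25 against 0.00 for all genes. E2f1, which transcribes replication genes, rose most at 0.65 ± 0.077 (adjusted p = 0.00281). It was at 99.7, 110, 112 and 132 CPM inside and 60.6, 71.8, 82.2 and 77.2 CPM outside, with no overlap. The licensing factors Cdt1 (0.50) and Cdc6 (0.36) and the helicase activator Gins2 (0.38) rose, and of the mitosis members Cdca8 (0.50), Cenpf (0.48) and Aurkb (0.43) rose most. Ccne1 was the member that fell, by 0.65 (SE 0.133, adjusted p = 0.018), in 4 of 4 areas. Leaving out the E15.5 area of replicates 2, 3 and 4 left 11 members that rose, and without the area as a block 5 rose. Of 6 erythroid markers 4 rose in the retina as well, and of 8 endothelial markers 1 rose and 4 fell, and their part in the result was not tested.

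Most calls in the olfactory epithelium were mitosis members, and the difference between the sets was not tested. Of 20 mitosis members 10 rose and none fell, and of 14 S-phase members none rose and 1 fell (background 19.2% that rose and 17.3% that fell of 13650 genes). Cenpf rose by 0.51 ± 0.0726, Cdca8 by 0.47 ± 0.0722 and Aurka by 0.45 ± 0.114. Cenpf was at 133, 122, 108 and 103 CPM inside and 95.7, 82.5, 80.4 and 66.5 CPM outside, with no overlap. Without the E14.5 area of replicates 2, 3 and 4 only 2 members rose, and without the E15.5 replicate 1 area 3 did. Without the area as a block, 1 rose. Of the markers of other cells, 7 of 8 macrophage, 5 of 6 erythroid and 3 of 8 endothelial genes fell and 1 endothelial gene rose, with macrophage sums of 196, 174, 173 and 223 CPM, and their part in the result was not tested. The choroid plexus region, with 76 spots in an E14.5 area and 20 in an E15.5 area, had mitosis sums of 3262 and 2329 CPM against 2064 and 2041 CPM outside, and was not tested.

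**Figure D3:**
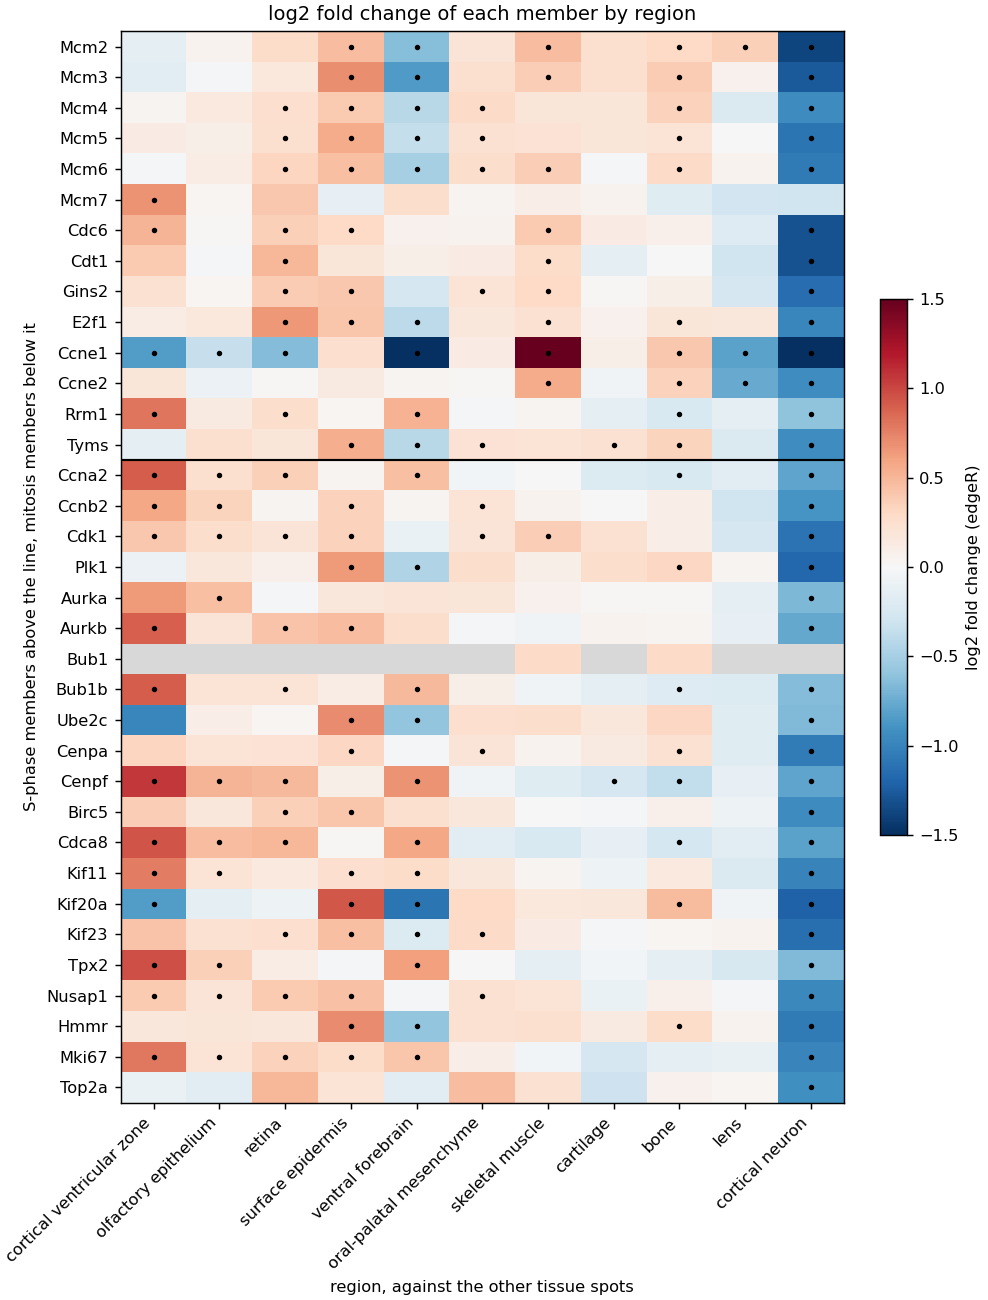
Colour gives the log2 fold change of each member (rows) in a region against the other tissue spots (columns), ending at 1.5 in either direction, a dot marks an adjusted p under 0.1, and grey marks a gene that was too low to test. The column of cortical neurons is blue almost throughout, and the row of Ccne1 is red in skeletal muscle at 1.55 and blue in the forebrain, retina and lens.

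The surface epidermis had the highest S-phase sum in both E14.5 areas and in the mean, but not in the E15.5 areas, and had more of both sets than the other spots. The S-phase sum was 1994, 1632, 1799 and 1722 CPM against 1246, 1297, 1468 and 1451 CPM outside, and the mitosis sum 2948, 2293, 2524 and 2520 CPM against 2335, 2125, 2218 and 2013 CPM. Both were higher in 4 of 4 areas. Of 34 members 22 rose and none fell (background 26.0% that rose and 25.5% that fell, 51.6% in all, of 13681 genes), with a median of 0.35 on the log2 scale against 0.01 for all genes. The genes that rose most in the mitosis set were Kif20a (0.93 ± 0.164), Ube2c (0.71 ± 0.185), which tags mitotic proteins for destruction, Hmmr (0.71 ± 0.113) and Plk1 (0.64 ± 0.108). In the ventral forebrain, whose comparison shares most of its spots with this one, these 4 genes had log2 fold changes of -1.09, -0.59, -0.59 and -0.45. Kif20a was at 10.8, 11.4, 17 and 19.7 CPM inside and 5.97, 6.45, 8.6 and 11.1 CPM outside. Cenpf, Tpx2, Cdca8 and Ccna2, at 0.09, -0.02, 0.02 and 0.05, did not pass the test here.

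Of the S-phase members of the epidermis, 9 of 14 rose. Mcm3 led at 0.70 ± 0.112 (adjusted p = 0.000326), with 178, 153, 197 and 168 CPM inside and 76.5, 92.2, 131 and 124 CPM outside, with no overlap. The thymidylate synthase gene Tyms rose by 0.54, and 5 of the 6 helicase subunits rose, while Mcm7 was at -0.12 and did not pass. Markers of other cells were higher here too, as 8 of 8 macrophage, 6 of 8 endothelial and 5 of 6 erythroid markers rose. The macrophage markers summed to 366, 472, 379 and 549 CPM in the epidermis, led by C1qb, C1qc or Mrc1, against 221, 223, 239 and 319 CPM over whole areas. The endothelial markers summed to 620, 540, 570 and 584 CPM, led by Egfl7, and the erythroid markers to 5416, 10855, 7381 and 5991 CPM, led by Hbb-bs. In the E14.5 replicate 1 area, 2 erythroid markers and 1 endothelial marker were at 0. Their part in the result was not tested.

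In skeletal muscle most of the calls were S-phase members, though the difference between the sets was not tested. The S-phase sum was 1496, 1555, 1779 and 1616 CPM against 1241, 1263, 1436 and 1431 CPM outside, higher in 4 of 4 areas, while the mitosis sum differed from that outside by a log2 ratio of -0.02 ± 0.0401 (SD, n = 4), which became 0.075 with each gene at equal weight and 0.074 with TMM-scaled libraries. Of 14 S-phase members 9 rose, and of 21 mitosis members 1 rose, Cdk1 at 0.37 ± 0.128 (background 20.5% that rose and 25.0% that fell of 14069 genes). Cdk1 was at 887, 341, 392 and 331 CPM in muscle and 512, 313, 366 and 309 CPM outside, so that the shallow E14.5 replicate 1 area stood far above the others, and it was not called without the E14.5 area of replicates 2, 3 and 4 or without the E15.5 replicate 1 area. The mitosis sum of that shallow area, 2370 CPM in muscle against 2341 CPM outside, includes this Cdk1 level. Without Cdk1 the mitosis sum of muscle is below that outside in every area, most of all in the E14.5 replicate 1 area. Ccne1 rose most, by 1.55 ± 0.16 (adjusted p = 0.000364). It was at 216, 156, 168 and 152 CPM in muscle and 54.9, 57.4, 55.7 and 82.1 CPM outside, with no overlap and whichever area was left out. Ccne2 rose by 0.56 ± 0.103, Mcm2 by 0.47 ± 0.122, Cdc6 by 0.39 ± 0.0769, Mcm6 by 0.37 and Mcm3 by 0.36. Without TMM scaling, where the median of all genes was -0.11 rather than -0.01, 6 members rose and 3 fell. Without the E14.5 area of replicates 2, 3 and 4, 6 members rose, and without the E15.5 replicate 1 area 3 did. Without the area as a block, 3 rose. Of 8 macrophage markers 3 rose, and of 8 endothelial markers 3 rose and 1 fell, with macrophage sums of 268, 278, 267 and 301 CPM, and their part in the result was not tested. Muscle spots of the E14.5 replicate 1 area were shallow, with a median of 2671 UMIs.

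In bone 18 of 35 members were called, a share close to the background of 53.5% of all genes called in either direction, and the difference between the S-phase and mitosis sets was not tested. Of 14 S-phase members 9 rose and 1 fell, and of 21 mitosis members 4 rose and 4 fell (background 26.3% that rose and 27.3% that fell of 14036 genes). Ccne1 (0.40 ± 0.117), Mcm3 (0.38 ± 0.0707), Mcm4 (0.35), Ccne2 (0.34) and Tyms (0.34) rose, and Rrm1 fell by 0.23. In the mitosis set Kif20a (0.47 ± 0.188), Plk1 (0.31), Hmmr (0.28) and Cenpa (0.22), the centromeric histone, rose, and Cenpf (-0.36 ± 0.0733), Cdca8 (-0.26), Ccna2 (-0.23) and Bub1b (-0.19) fell. The mitosis sum was 1984, 1929, 2037 and 1855 CPM against 2360, 2157, 2265 and 2087 CPM, lower in 4 of 4 areas, and the S-phase sum differed by 0.04 ± 0.0769 on the log2 scale. These ratios depended on the weights and the scaling: the mitosis ratio of -0.18 became -0.029 with each gene at equal weight and -0.042 with TMM-scaled libraries, and the S-phase ratio 0.18 with TMM-scaled libraries. Without TMM scaling, where the median of all genes was -0.16 rather than -0.01, 3 members rose and 7 fell. Leaving out the E14.5 area of replicates 2, 3 and 4, or the E15.5 replicate 1 area, left 7 that rose and 1 that fell. Without the area as a block, 2 rose and 1 fell. Of the markers of other cells, 6 of 8 endothelial, 4 of 6 erythroid and 2 of 8 macrophage genes rose in bone, with endothelial sums of 523, 440, 517 and 517 CPM.

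Oral-palatal mesenchyme, 433 spots, was higher in both sums than the other spots, with log2 ratios of 0.19 ± 0.0577 for S-phase and 0.13 ± 0.0431 for mitosis (SD, n = 4) and 4 of 4 areas higher for each. The mitosis ratio was 0.33 with each gene at equal weight, 0.20 at a region score of 0.40 and 0.082 by sections. Of 34 members 10 rose and none fell (background 16.8% that rose and 18.4% that fell of 13754 genes), among them Cdk1 (0.19), Ccnb2 (0.21), Kif23 (0.29), Mcm4 (0.29), Mcm6 (0.26) and Tyms (0.22). None rose once the E14.5 area of replicates 2, 3 and 4 or the E15.5 replicate 1 area was left out, or without the area as a block. Macrophage markers summed to 331, 282, 253 and 333 CPM here, led by C1qa or C1qc, and endothelial markers to 489, 406, 513 and 514 CPM, led by Egfl7, both above the whole area in 4 of 4 areas. Of 8 macrophage markers 1 rose, and of 8 endothelial markers 4 rose and 1 fell, and their part in the result was not tested. In cartilage 1 member rose, Tyms at 0.23, and 1 fell, Cenpf at -0.26, of 34 (background 14.9% and 12.1% of 13745 genes). Leaving out the E14.5 replicate 1 area gave 5 that rose and 2 that fell, leaving out the E15.5 replicate 1 area gave 1 and 0, and leaving out either area of replicates 2, 3 and 4 gave none. Without the area as a block, none was called.

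The lens, 117 spots in 3 areas, had a lower CPM of both sets, as of most genes, with S-phase sums of 1064, 1421 and 852 CPM against 1309, 1498 and 1483 CPM outside and mitosis sums of 1684, 1971 and 1173 CPM against 2138, 2247 and 2066 CPM. Both sums were lower in 3 of 3 areas, with mean log2 ratios of -0.39 ± 0.371 and -0.45 ± 0.327, and of -0.082 and -0.14 with TMM-scaled libraries. Ccne1 (-0.80 ± 0.147, adjusted p = 0.00027) and Ccne2 (-0.76 ± 0.262) fell and Mcm2 rose by 0.36, the only calls of 34 members (background 9.89% that rose and 11.8% that fell of 14721 genes). Ccne1 was at 37.2, 34.4 and 38.5 CPM in the lens and 71.8, 76.2 and 97.4 CPM outside. The result depended on the scaling, since without TMM, where the median of all genes was -0.39 rather than -0.06, 22 members fell and none rose. Without the E15.5 replicate 1 area, or without the area as a block, 1 member fell and none rose.

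Other genes of the cell cycle were read beside the members, from lists that share no gene with them. Over all genes tested, 35.9% fell in cortical neurons, 18.3% rose in the ventricular zone, 26.0% in the epidermis, 15.4% in the retina and 20.5% in muscle, and in the ventral forebrain 36.6% rose and 38.9% fell. Of the other mitotic genes, 42 of 44 fell in cortical neurons, 29 of 44 rose in the ventricular zone, 27 of 44 in the epidermis and 22 of 45 in the retina, while 15 rose and 9 fell of 45 in the ventral forebrain (33.3% and 20%), below the shares of all genes. Racgap1, which acts in cytokinesis, rose by 0.94 in the ventricular zone and by 0.60 in the ventral forebrain and fell by 0.55 in cortical neurons. The nuclear lamin gene Lmnb1 rose by 0.67 and 0.61 in the first and second of these and was at 0.10 in neurons, and the condensin gene Ncapd2 rose by 0.34 and 0.39 and fell by 0.33. Of the other replication genes, 31 of 41 fell in cortical neurons, 26 of 41 rose in the retina, 18 in the epidermis, 17 in the ventricular zone and 12 in muscle. Uhrf1, which guides maintenance methylation, fell by 1.28 in neurons and rose by 0.62 in the retina and 0.55 in the epidermis. Tk1, a thymidine kinase, fell by 0.98 in neurons, and Dnmt1, the maintenance methyltransferase, was at -0.03 there and rose by 0.44 in the ventral forebrain.

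Regulators of the entry into S-phase moved in both directions. Of 9 CDK inhibitors and pocket proteins, 5 rose and 2 fell in muscle, 6 rose and 3 fell in the ventral forebrain, and 4 rose and 2 fell in the ventricular zone. Of 6 G1 cyclins and kinases, the same regions had 2 and 3, 1 and 3, and 2 and 2. Over all genes tested, 45.5% were called in either direction in muscle, 75.5% in the ventral forebrain and 44.4% in the ventricular zone. Cdkn1c and Cdkn1a encode inhibitors of cyclin-dependent kinases. Cdkn1c was at 4062, 6570, 6856 and 5920 CPM in skeletal muscle, against 434, 467, 477 and 405 CPM in cortical neurons and 350, 520, 191 and 788 CPM in the ventricular zone. It rose in muscle by 1.83 ± 0.149 (log2, SE; adjusted p = 0.000158) and fell in the ventral forebrain by 2.71 (SE 0.263, adjusted p = 0.00066). Cdkn1a rose in muscle by 1.65 ± 0.139 and in bone by 0.75, and fell by 2.24 in the ventricular zone. In muscle these inhibitors and Ccne1 thus all rose. E2f4, a repressor of the E2F family, rose in muscle by 0.33 and fell in the ventral forebrain by 0.42. Of the G1 cyclins, Ccnd3 rose in muscle by 1.23 ± 0.144 and in epidermis by 0.75 and fell in the ventral forebrain by 2.34, Ccnd2 rose in cortical neurons by 0.64 and fell in the retina by 0.86, and their partner kinase Cdk4 rose in the ventricular zone by 0.37 and lay between -0.04 and 0.14 in the other regions described. Ccnd1, picked after its values were seen, rose in the retina by 2.48 ± 0.0829 and in the lens by 1.37 ± 0.127.

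Genes outside these lists were ranked by how closely their log2(CPM + 1) followed the sums over 48 region-by-area totals, among 12019 genes with at least 1000 UMIs. The totals share libraries, so the values are descriptions. Closest to the S-phase sum were Hist1h2bj (Pearson r = 0.92), Hist1h1d (0.91), Tead2 (0.90), Siva1 (0.89), Wee1 (0.88), Ankle1 (0.88), Fam83d (0.87), Ticrr (0.87), Cenph (0.87) and Bcl2l12 (0.85). Closest to the mitosis sum were Arhgef39 (0.91), Cdca5 (0.91), Ddx11 (0.91), Hist2h2bb (0.90), Chek2 (0.88), Hist1h2bj (0.88), Hist1h1a (0.88), Ung (0.88), Cenph (0.87) and Pkmyt1 (0.86). Histone genes have near-identical copies, so their values are uncertain. The sums themselves had r = 0.82 over these totals. Among the members, Mcm5 (0.93) and Ccna2 (0.93) followed their own sum most closely, whereas Mcm7 (0.36), Kif20a (0.13), Top2a (0.029) and Ube2c (0.017) were far below. Each sum contains the member itself, so an abundant member is partly compared with itself. Mcm7, Kif20a, Top2a and Ube2c had few UMIs (4012, 2471, 997 and 2103), and the part of this in their values was not tested.

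Between the stages, no member passed the test. On simulated data of this design, the test recovered 3.03% of changes of 0.5 on the log2 scale, 10.45% of changes of 1 and 80.6% of changes of 2. The set medians given below are smaller than any of these. Changes of that size were not simulated and may go uncalled. Over whole areas the S-phase sum was 1255 CPM (95% Poisson interval 1237 to 1273) and 1303 CPM (1296 to 1310) at E14.5, and 1497 CPM (1488 to 1507) and 1468 CPM (1460 to 1476) at E15.5. The mitosis sum was 2343 CPM (2319 to 2367), 2128 CPM (2119 to 2136), 2245 CPM (2234 to 2256) and 2044 CPM (2034 to 2053) in the same order. The intervals cover counting error only. The S-phase sums of the areas did not overlap between the stages, while the mitosis sums did. By section, the S-phase sum at E15.5 ran from 1385 to 1536 CPM. At E14.5 section B, at 1605 CPM, was above all of these, while the other 3 sections, between 1254 and 1283 CPM, were below them. With 10 regions found in every area given equal weight, the S-phase sums were 1435 and 1336 CPM at E14.5 and 1510 and 1371 CPM at E15.5, which also overlapped. Between areas with the same replicate numbers, these S-phase sums were higher at E15.5 in both pairs. The whole-area mitosis sums were lower at E15.5 in both pairs. For the replicate 1 areas this order rested on Cdk1, which gave 8217 of 36168 mitosis UMIs at E14.5 and 24983 of 151191 at E15.5. Without Cdk1 the order of that pair is reversed. So few pairs say little, and these differences were not tested.

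**Figure D4:**
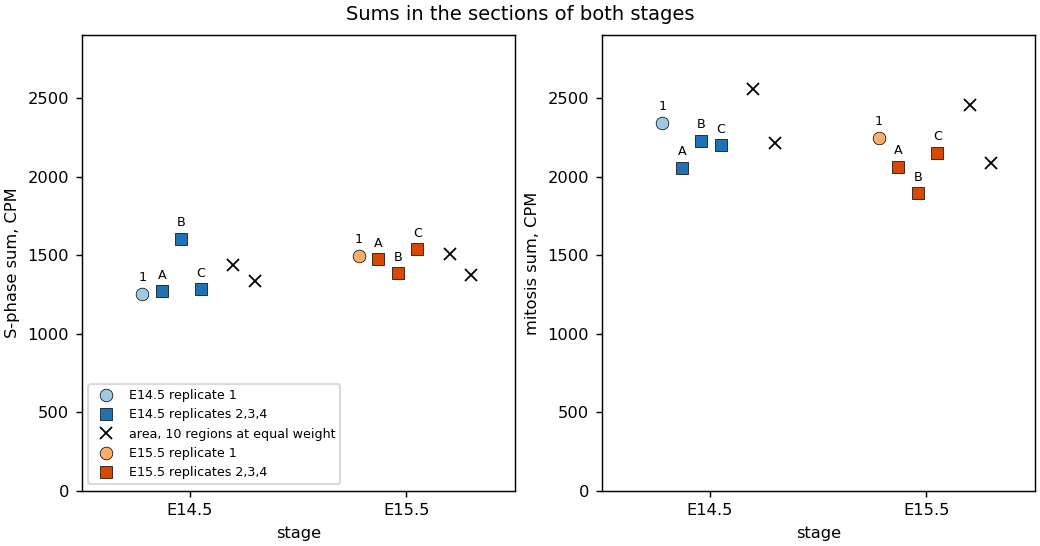
Filled points are sections (1 for the single section of a replicate 1 area, A to C for the sections of the other area) and crosses are areas with 10 regions at equal weight; the vertical axes give the S-phase and the mitosis sum in CPM from 0. Section B of E14.5 lies above the others in the S-phase sum at 1605 CPM, and the stages overlap in both sums.

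With edgeR, 0 of 37 members were called between E15.5 and E14.5 (background 0% of 15609 genes, of which 930 had an unadjusted p under 0.05), and DESeq2 called 0 members and 15 genes higher and 14 lower of 15609. The edgeR background depended on the areas used. Some genes were called without the E15.5 replicate 1 area, a fit that leaves that stage a lone area. By the unadjusted p, 2 members were under 0.05 with edgeR and 1 with DESeq2. Ube2c was at 1.12 ± 0.368 on the log2 scale (unadjusted p = 0.0165, adjusted p = 0.769), with 49, 550, 616 and 888 UMIs in the areas, and Mcm3 at 0.56 ± 0.227 (unadjusted p = 0.0404, adjusted p = 0.769). Of 15 S-phase members 11 were above 0, with a median of 0.23, and of 22 mitosis members 9 were, with a median of -0.10. Within the 10 regions with at least 5 spots in every area, 337 tests of members gave 0 calls, and 0 had an unadjusted p under 0.05 with edgeR and 1 with DESeq2 (background 0% of genes in 9 regions and 0.00766% in oral-palatal mesenchyme). The mitosis sum of cortical neurons was 1231 and 1353 CPM at E14.5 and 1158 and 644 CPM at E15.5, a log2 difference of -0.52. In the E15.5 area of replicates 2, 3 and 4 this region had only 46 spots, and without that area the difference was -0.16. Of the 10 regions, 4 had S-phase sums that did not overlap between the stages and 6 had sums that did, and for the mitosis sums the numbers were 2 and 8. With 2 areas a stage, a lack of overlap says little. The 4 were muscle, cartilage, bone and oral-palatal mesenchyme, where the S-phase sums were higher at E15.5 by between 0.09 and 0.15 on the log2 scale, and by between 0.033 and 0.22 with an area left out. In the olfactory epithelium the mitosis sum was 2716 and 2781 CPM at E14.5 and 2553 and 2493 CPM at E15.5, a log2 difference of -0.12, and this region and the cortical neurons were the 2. No test was made of these sums.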

How the data were processed

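The deposited files hold unnormalized UMI counts by gene and barcode, with array positions. Per the file headers, Space Ranger produced them, in version 1.3.1 where an area held replicate 1 and in version 2.0.0 elsewhere, which splits both stages alike. The submitters' processing notes name the build mm10, and the probe set is not given in the sources used here. Spots over tissue were used, without calling doublets. Members and lists were chosen with earlier results of these data known. A region score was the mean over markers of CPM divided by the 99th percentile of that CPM, at most 1, and not every marker is reported here. Sections were connected groups of at least 100 spots. UMIs were summed per area, the library being the replicate, so p-values measure the spread between areas, and the study describes biological triplicates without saying which section came from which embryo. Sums were tested with edgeR 4.0.16 in R 4.3.3 (TMM, filterByExpr, quasi-likelihood, Benjamini-Hochberg), which was tried on simulated data, where false calls between the stages exceeded the threshold. Genes named are any member called, or highest or lowest, in a comparison, the 3 genes with most UMIs of each other list, and the 10 most like each sum. Alternatives were DESeq2 1.42.0, no TMM, no filter, an adjusted p under 0.05, thinned depth, the replicate number or area as a block or not, each area left out, region scores of 0.15 and 0.40, other weights in the sums, and, added after the data were seen, regions at equal weight and areas left out of the stage ratios within regions. Depths above set the precision of each value.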

Additional observations from a re-analysis of the deposited data

Results flagged for a closer look

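The S-phase sum of section B at E14.5, 1605 CPM, lay far from the other 3 sections of its stage, which were between 1254 and 1283 CPM, and its distance to the nearest was 0.919 of the whole range. Chance sets apart about 1 in 20 groups of independent values, which these are not, since 3 of the 4 sections share a library, and 6 groups were looked at. It was also the shallowest section of its library (median 10038 UMIs in a spot). The part of depth in the value was not tested.

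In cartilage, the S-phase sum was above that of the other tissue spots in both E14.5 areas (log2 ratios 0.05 and 0.12) and below it in both E15.5 areas (-0.07 and -0.02), a mean change of -0.125 between the stages. This difference was not tested. The SD of the ratio over the 4 areas was 0.0805.

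Barcodes outside the tissue outline, which entered no comparison, carried 1976 UMIs of the members. There were 8 such barcodes in the E14.5 area of replicates 2, 3 and 4 with a member sum of 2920 CPM, and 11 in the E15.5 area of replicates 2, 3 and 4 with 3865 CPM, against 3431 and 3511 CPM in the tissue spots of the same areas.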

How the results depend on the processing

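Over 45 results and 435 alternative values, 364 stayed within the limits set, 70 moved and 1 reversed. Of the 166 calls of members in a region, 94 held whichever area was left out. Depth limits most the E14.5 replicate 1 area and the genes with few UMIs, such as Ube2c and Kif20a. Where no cause is given, it was not tested.

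Leaving out 1 area, which leaves 1 stage with a lone sample assumed to vary like the others, gave 0 to 2 calls within regions between the stages. Members that rose numbered 9 to 19 in the ventricular zone, 3 to 13 in muscle, 7 to 14 in bone, 2 to 11 in the olfactory epithelium, 11 to 14 in the retina and 0 to 8 in oral-palatal mesenchyme. Those that fell numbered 8 to 14 in the ventral forebrain and 1 to 4 in bone, and those called were 0 to 7 in cartilage and 1 to 2 in the lens.

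Without the area as a replicate block, 3 members rose in muscle, 2 in bone, 1 in the olfactory epithelium, 5 in the retina and 0 in oral-palatal mesenchyme (10 by the main edgeR test), 1 fell in bone, and 0 were called in cartilage and 1 in the lens. Same-numbered areas of the stages also share the Space Ranger version and the number of sections, and their deviations had a correlation of 0.33 over 12152 genes, the source of which was not tested. The replicate block between stages left 0 genes called. Without TMM, 6 rose in muscle, 3 in bone and 17 in oral-palatal mesenchyme, and 22 were called in the lens. A score of 0.40 gave 15 that rose and 6 that fell in the ventral forebrain and 4 called in cartilage, and a score of 0.15 gave 6 that rose in the olfactory epithelium. Without the filter 6 rose there and 1 in oral-palatal mesenchyme. At an adjusted p under 0.05, 6 rose in the olfactory epithelium and 1 in oral-palatal mesenchyme, 1 fell in bone and 0 were called in cartilage. DESeq2 called 1 member in the lens.

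Among log2 ratios of sums, giving each gene equal weight reversed the mitosis sum of cartilage, from -0.09 to 0.084. It gave 0.34 (S-phase) and 0.075 (mitosis) in muscle, -0.029 for mitosis in bone, 0.43 in epidermis, 0.38 in the olfactory epithelium and 0.33 in oral-palatal mesenchyme, and 0.27 and 0.18 for S-phase in oral-palatal mesenchyme and cartilage. With TMM-scaled libraries, muscle had 0.36 and 0.074, bone 0.18 and -0.042, and cartilage -0.033 for mitosis. Without Mki67, Top2a and Ccna2 the mitosis ratio was -0.12 in bone and -0.0093 in cartilage. For oral-palatal mesenchyme it was 0.20 at a score of 0.40 and 0.082 by sections. The S-phase ratio of E15.5 over E14.5, 0.21, became 0.26 at equal gene weight, 0.28 without the most abundant gene, 0.15 with TMM, 0.13 by sections and 0.055 with regions at equal weight, an alternative chosen after seeing the data.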
